A study of Mus musculus with 12 samples.

Results

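The 2 cytosolic methionine tRNAs, initiator tRNA-Met (mature-tRNA-iMet-CAT) and elongator tRNA-Met (mature-tRNA-Met-CAT), were followed as small RNA fragments in 12 mouse libraries. They were taken by name from the mature tRNA entries of each library and make up 2 of the 51 isoacceptors (tRNAs grouped by amino acid and anticodon) that had reads. The reads that SPORTS1.1 placed at the 5′ end of the mature tRNA are called tRF5, those at the 3′ end, with or without the added CCA tail, are called tRF3, and the remaining reads of the same tRNA, which touch neither end, are called other. This gave 6 tRFs of tRNA-Met. Levels are RPM, the reads per 1000000 clean reads that were not rRNA.

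The samples were 6 libraries of epididymal sperm and 6 of TM4 cells, a mouse Sertoli cell line. Each sperm library pooled the sperm of 3 C57BL6/J mice that were given a control diet (CD, n = 3 libraries, 16% of energy from fat) or a high-fat diet (HFD, n = 3, 69% by the labels) for 7 weeks from 4 weeks of age. The methods of the study give a lower fat share for the high-fat diet than the labels do. TM4 cells were non-treated (Ctrl, n = 2), treated with 10 µM Compound C, an inhibitor of the energy sensor AMPK, for 12 h (CC, n = 2), or overexpressed the full coding sequence of angiogenin, an RNase that cleaves tRNAs, from a plasmid (Ang OE, n = 2). Both were compared with the same non-treated cells, so the CC and Ang OE comparisons share the Ctrl libraries, and an empty-vector control was not analysed here. Nothing in the labels says that the TM4 libraries of a group came from separate cultures, so their p-values measure only the spread between these libraries.

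A cell uses 2 kinds of cytosolic methionine tRNA with the same anticodon. The initiator is bound by initiation factors and places the first methionine at the start codon, while the elongator is brought to the ribosome by the elongation factor for every methionine inside a protein. Angiogenin is known to cut tRNAs mainly in the anticodon loop, which leaves fragments that hold the 5′ or the 3′ end. The CCA tail is added to tRNAs after transcription and is not part of their genes.

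The gene sequences are shown because they decide whether a short read can be placed on the initiator or on the elongator. They were found by their tRNA fold in the GRCm39 genome, 5′ to 3′ without the CCA tail, with the anticodon in capitals. The initiator sequence shown is carried by 7 of 9 initiator genes, and its copy at chr3:90383167-90383238 (minus strand) is intergenic. The elongator sequence shown, carried by 2 of 7 elongator genes, is at chr13:21351774-21351846 (plus strand), in an intron of the lncRNA gene Gm32298. The mitochondrial tRNA-Met gene mt-Tm (annotated transcript, chromosome M) is given for comparison.
initiator tRNA-Met: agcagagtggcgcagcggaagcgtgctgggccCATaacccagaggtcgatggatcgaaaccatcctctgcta
elongator tRNA-Met: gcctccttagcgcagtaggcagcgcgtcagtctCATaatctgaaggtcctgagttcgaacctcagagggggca
mitochondrial tRNA-Met: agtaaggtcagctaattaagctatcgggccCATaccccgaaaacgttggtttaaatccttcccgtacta

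Initiator genes are 72 bases long and elongator genes 73, so levels per length differ from levels per read by a factor of 1.01 between them. The sequences shown of the 2 kinds were identical at 56.0% of aligned positions, and the longest stretch that any initiator gene shared with any elongator gene was 6 bases. In windows of 15 bases, the shortest read kept by the study, an initiator and an elongator sequence with its CCA tail differed at 3 or more positions, against the 1 mismatch allowed. The initiator genes were nearly uniform: variants 2 and 3, each from 1 gene, carried the single substitutions G23A and G51A relative to the sequence shown (positions counted from 1 at the 5′ end). The 7 elongator genes fell into 5 variants. Of the genes found, 7 initiator and 4 elongator genes lie on chromosome 13, 4 initiator and 3 elongator genes are intergenic, 5 and 3 lie in introns, and 1 elongator gene lies in an exon, each of the last 2 kinds within a lncRNA gene. RefSeq lists 16 nuclear tRNA-Met genes, which matched the 16 found here in chromosome and length. In the estimated counts, all 144 values of the tRNA-Met entries were whole numbers to within 0.005, against 46.1% of 3217 values of other mature tRNAs. A value that is not whole includes reads divided among entries.

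Libraries held 31710445 to 64038150 clean reads, and 1272431 to 4595103 reads matched mature tRNAs. rRNA took 16.5% to 32.9% of clean reads in sperm and 5.92% to 8.58% in TM4 cells. Marker miRNA precursors of other cell types were present in the sperm libraries: all 5 epithelial markers (mir-200 family), at 4480 to 7580 RPM in sum and highest in HFD replicate 3, all 4 red blood cell markers, at 12630 to 25341 RPM and highest in HFD replicate 1, all 4 smooth muscle markers, at 15352 to 29715 RPM and highest in HFD replicate 3, and all 4 white blood cell markers, at 2837 to 4241 RPM and highest in HFD replicate 2. All 10 testis germ cell markers had reads in sperm (1829 to 5021 RPM in sum). The same lists also had reads in the TM4 cell line. There the smooth muscle list summed to 29771 to 79792 RPM, above every sperm library. The sums in TM4 cells were 1090 to 1639 RPM for red blood cells, 509 to 797 for white blood cells and 550 to 1335 for germ cells. Epithelial markers had 0.72 to 1.55 RPM there. In TM4 cells the single Sertoli marker used, mir-202, had between 0 and 0.11 RPM, against 2.57 to 28.8 RPM in sperm, so the label was not borne out by that marker. The part of these cell types in the results below was not tested.

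Sperm carried far more initiator than elongator reads, and TM4 cells carried the 2 at similar levels. The initiator had 2253, 2010 and 1647 RPM in the 3 CD libraries and 2513, 2968 and 3393 RPM in the 3 HFD libraries. The elongator had 104, 126 and 67.3 RPM in CD sperm and 85.2, 144 and 242 RPM in HFD sperm. Every sperm library therefore held more initiator than elongator reads, by 14.0-fold to 29.5-fold. In TM4 cells the initiator had 88.1 and 81.4 RPM in Ctrl, 84.0 and 96.7 in CC and 106 and 136 RPM with Ang OE. The elongator had 67.0 and 71.9 RPM in Ctrl, 81.0 and 110 in CC and 125 and 137 with Ang OE. The 2 tRNAs lay within 0.845-fold to 1.31-fold of each other in these 6 libraries.

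The log2 ratio of initiator to elongator reads, which does not depend on library size, was 4.35 ± 0.39 (SD, n = 6) in sperm and 0.03 ± 0.24 (n = 6) in TM4 cells. The difference of 4.32, a 19.9-fold difference between the ratios, had an exact two-sided permutation p of 0.00216, the smallest this design can give (adjusted p = 0.00289 over the total and the 3 classes). The initiator mean was 25-fold higher in sperm (2464 against 98.7 RPM, exact permutation p = 0.00216, adjusted p = 0.00433), whereas the elongator mean was 1.30-fold higher (128 against 98.7 RPM, p = 0.353 by the same exact test) with overlapping libraries. The TM4 side of these tests pools Ctrl, CC and Ang OE cells, and the sperm side both diets, which are not replicates of 1 condition. The elongator mean was 69.5 RPM in Ctrl and 131 RPM in Ang OE, against 99.2 RPM in CD sperm. The sperm-to-TM4 fold of the initiator ranked 3 among 51 isoacceptors and that of the elongator 32, around a median fold of 2.15. The initiator was 1 of 21 isoacceptors (41.2%) whose 6 sperm libraries all lay above the 6 TM4 libraries. Source, culture and library preparation cannot be told apart in this comparison, and in bulk samples neither can fewer cells of a type and less RNA per cell. Marker sums differed too: epithelial markers had 4480 to 7580 RPM in sperm and 0.72 to 1.55 in TM4 cells. Blood and germ cell sums were also higher in sperm, and smooth muscle sums higher in TM4 cells. Their part was not tested.

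**Figure D1:**
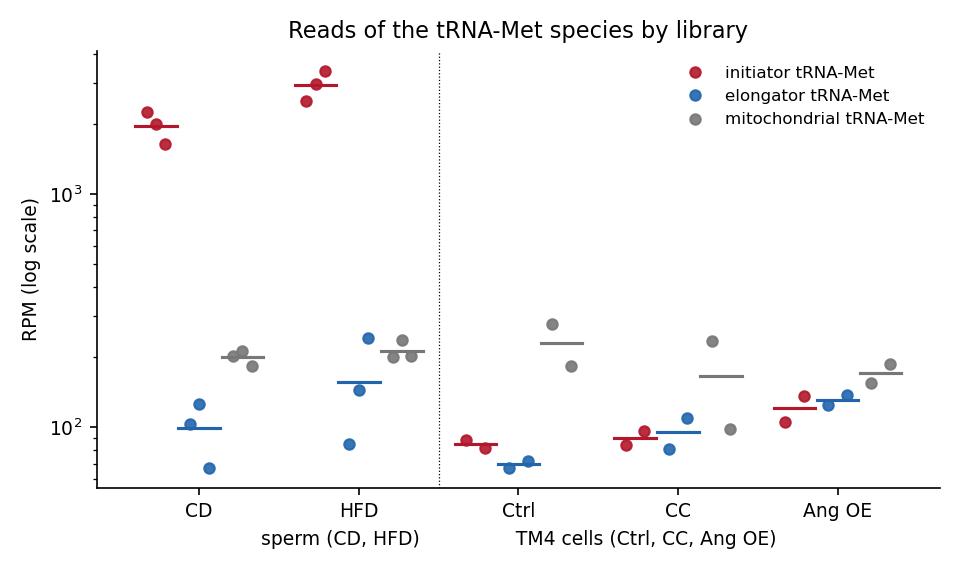
RPM (log scale) of initiator, elongator and mitochondrial tRNA-Met in each library, with points for libraries and bars for group means. Initiator reads lie at 1647 to 3393 RPM in sperm and at 81.4 to 136 RPM in TM4 cells, while elongator reads stay between 67.0 and 242 RPM in all groups.

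As a share of mature tRNA reads, the initiator made up 1.82% ± 0.55 of sperm and 0.319% ± 0.036 of TM4 reads (SD, n = 6 each, exact permutation p = 0.00216). The elongator share ran the opposite way, at 0.0962% ± 0.052 in sperm and 0.314% ± 0.058 in TM4 cells (exact permutation p = 0.00216). On the RPM scale the elongator was not lower in sperm, so its direction depends on the denominator. In CD sperm the initiator ranked 8 of 51 isoacceptors by mean RPM, and 5 of 51 among other fragments. The elongator ranked 40 of 51 there. In Ctrl cells the ranks were 34 and 38.

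The fragments of both tRNAs in sperm were mostly other reads, unlike the sum of mature tRNA reads, of which 75.5% ± 5.2 were tRF5 in CD sperm (SD, n = 3). Other reads made up 94.1%, 91.5% and 85.9% of initiator reads in the CD libraries and 93.5%, 94.2% and 94.2% in the HFD libraries. For the elongator they made up 88.9%, 88.4% and 80.2% in CD and 81.8%, 88.9% and 91.8% in HFD sperm. tRF5 made up 5.49% to 13.5% of initiator and 6.61% to 13.1% of elongator reads in CD sperm, both highest in replicate 3. The median isoacceptor had 11.9% tRF5 and 55.7% other reads in CD sperm. tRF3 was the rarest class of the initiator in sperm, with 0.347% to 0.933% of its reads.

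In TM4 cells the 2 tRNAs were split differently. The initiator yielded tRF5 at 15.3% and 7.50% of its reads in Ctrl, 9.69% and 4.50% in CC and 21.7% and 29.2% with Ang OE. The elongator yielded few: 8 and 15 tRF5 reads in Ctrl, 18 and 14 in CC and 33 and 36 with Ang OE, at most 0.532% of its reads. Its tRF3 made up 30.9% and 30.2% of its reads in Ctrl, 29.8% in both CC libraries, and 14.5% and 13.4% in Ang OE, against 3.88% to 7.97% for the initiator. The median isoacceptor had 1.86% tRF5 and 48.3% tRF3 in Ctrl, 1.32% and 54.0% in CC, and 3.82% and 39.5% in Ang OE, so few tRF5 reads were common among isoacceptors and the tRF3 shares of both tRNA-Met lay below the median. Wilson 95% intervals of these shares reached at most 1.81 points to either side and cover counting error only, so the split between the tRNAs exceeded it in every TM4 library.

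Nearly all tRF3 reads of the elongator carried the CCA tail, and 2 to 13 reads per library were 3′ ends without it. In TM4 cells 73.2% to 86.7% of the elongator's CCA reads did not match the genome, against 25.9% to 35.4% in sperm. For the initiator these shares were 18.5% to 44.8% in TM4 cells and 6.74% to 17.5% in sperm. A read that includes the tail matches the genome only within the mismatches allowed, since the tail is not encoded, so statements on tRF3 here are statements on CCA-tailed reads. Precursor entries were listed for 4 isoacceptors, of which 0 were tRNA-Met.

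**Figure D2:**
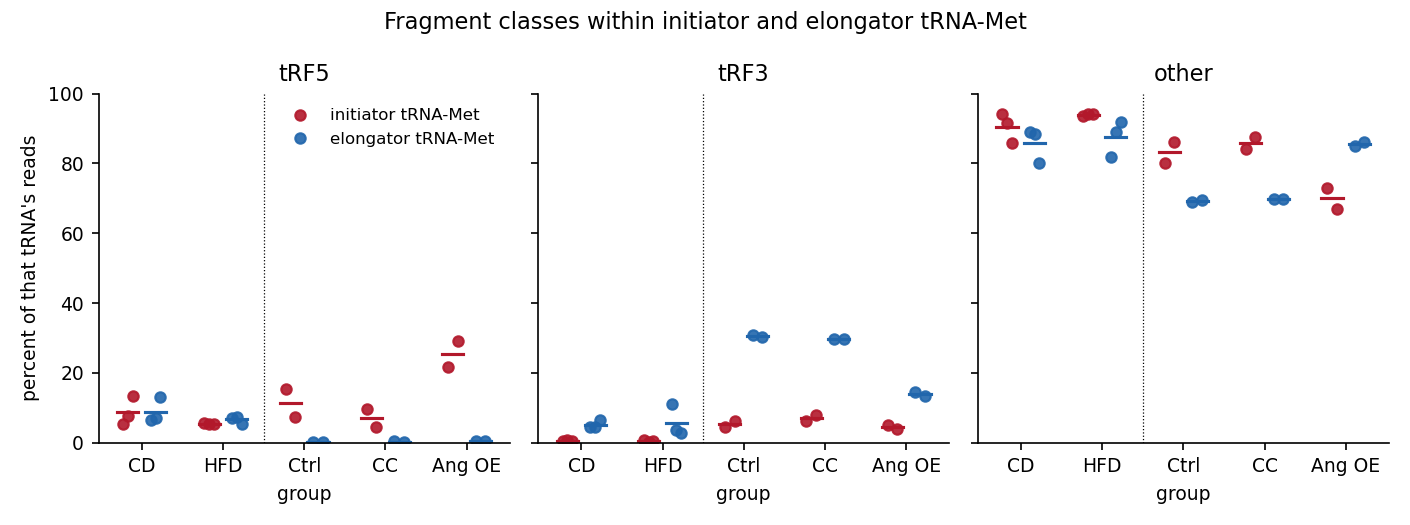
Percent of initiator and elongator reads in the classes tRF5, tRF3 and other in each library (points) with group means (bars). The elongator shows 13.4% to 30.9% tRF3 and at most 0.532% tRF5 in TM4 cells, and the initiator shows 21.7% and 29.2% tRF5 in Ang OE.

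The ratio of the 2 tRNAs differed by class. For tRF5 the initiator exceeded the elongator in both sources, with a log2 ratio of 4.19 ± 0.33 in sperm and 5.03 ± 0.93 in TM4 cells (SD, n = 6 each). The difference of -0.84 did not pass the exact permutation test (p = 0.0671, adjusted p = 0.0671), and it did pass without CD replicate 3 (-0.94, p = 0.0476) or without CC replicate 2 (-1.08, p = 0.0173) by the same exact test. For tRF3 the ratio was 1.18 ± 0.20 in sperm and -2.04 ± 0.25 in TM4 cells, a difference of 3.22 (exact permutation p = 0.00216, adjusted p = 0.00289). The initiator was thus the more abundant 3′ fragment in all 6 sperm libraries and the elongator in all 6 TM4 libraries. For 3′ ends without the tail alone the difference was 0.57 (exact permutation p = 0.286). For other reads the ratio was 4.44 ± 0.45 in sperm and 0.12 ± 0.45 in TM4 cells, a difference of 4.32 (adjusted p = 0.00289 by the exact permutation test).

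**Figure D3:**
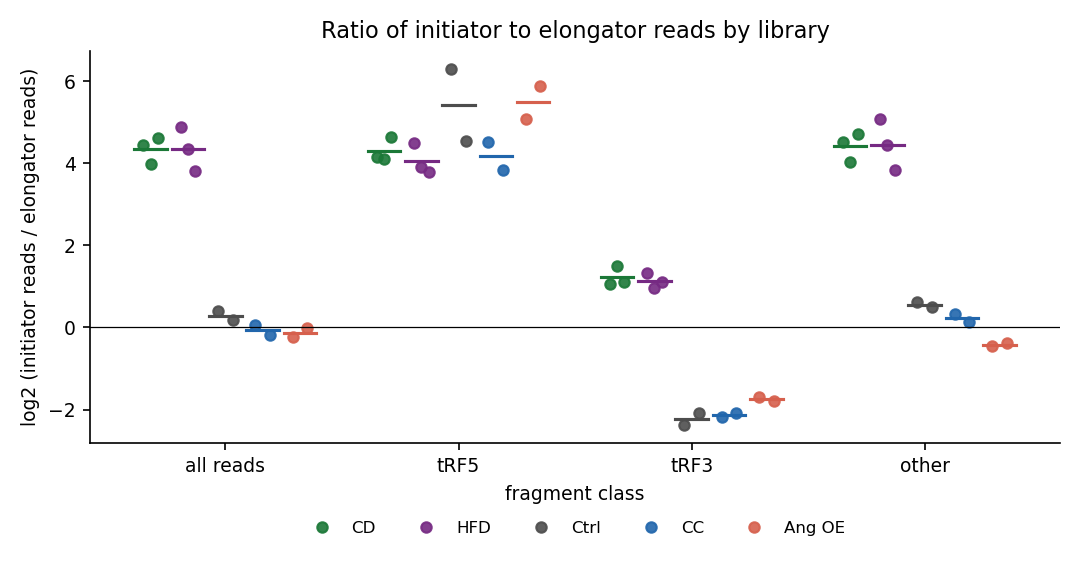
log2 ratio of initiator to elongator reads in each library (points) with group means (bars), for all reads and for each class. Sperm and TM4 libraries separate for all reads (means 4.35 and 0.03), tRF3 (1.18 and -2.04) and other reads (4.44 and 0.12), and overlap for tRF5.

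CD sperm was set beside Ctrl cells with edgeR's quasi-likelihood test over all tRFs, where 113 of 145 tRFs (77.9%) passed an adjusted p under 0.05 with a fold over 2, so a call was the rule. Of the 6 tRFs of tRNA-Met, 5 passed. Elongator tRF5 was 38.9-fold higher in CD sperm (8.20 against 0.206 RPM, log2 fold change 5.28 ± 0.52 SE), initiator other reads 25.4-fold (1792 against 70.4 RPM, 4.67 ± 0.44) and initiator tRF5 17-fold (167 against 9.79 RPM, 4.09 ± 0.42). The last value rested partly on 1 library, at a log2 fold change of 4.77 without Ctrl replicate 1, and leaving out the other libraries 1 at a time gave 3.63 to 4.26. With TMM over tRFs, which moved the median of all tRFs from 1.17 to -0.11, these 3 values were 4.09, 3.45 and 3.00 and all stayed called. Initiator tRF3 was 2.63-fold higher, and was no longer called with TMM over tRFs (log2 fold change 0.15) or with DESeq2's own size factors (0.45, adjusted p = 0.253). Its 3′ ends without the CCA tail, 7 to 29 reads per library, were not called alone (0.0036). Elongator tRF3 was 4.26-fold lower in CD sperm (4.98 against 21.2 RPM), which was a difference in CCA-tailed reads (4.39, 5.61 and 4.40 RPM in CD against 20.6 and 21.6 in Ctrl). The 3′ ends without the tail were 2 to 8 reads per library and gave no call alone (0.68, edgeR adjusted p = 0.369). With genome-matched reads alone the elongator tRF3 call was lost (-0.60, edgeR adjusted p = 0.133). Elongator other reads, at 86.0 and 48.0 RPM, had a log2 fold change of 0.84 (edgeR adjusted p = 0.0310) and did not reach a fold of 2. Without CD replicate 3 they were called (1.09, edgeR adjusted p = 0.0104), and with TMM their value was -0.42 and with DESeq2's own size factors -0.11. The median log2 fold change was 1.17 over all tRFs and 2.74 over the 6.

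HFD was compared with CD sperm to ask whether the diet changed these fragments. The initiator total was higher in all 3 HFD libraries than in any CD library, with means of 2958 ± 440 and 1970 ± 305 RPM (SD, n = 3 each), a 1.5-fold difference. The exact permutation p was 0.1, the smallest that 3 against 3 libraries allow, and 0.2 after adjustment over the 2 tRNAs. Totals of 15 of 51 isoacceptors (29.4%) were higher in HFD without overlap, so the initiator was not alone in this. rRNA reads, which are left out of the denominator, took 24.72%, 25.24% and 16.51% of clean reads in CD replicates 1 to 3. In HFD replicates 1 to 3 they took 32.95%, 30.52% and 24.74%. Per clean read with rRNA kept, the initiator total of HFD replicate 1 lay below that of CD replicate 1, so the groups then overlapped. Epithelial markers, at 4791, 5090 and 4484 RPM in CD and 4480, 6060 and 7580 RPM in HFD replicates 1 to 3, were highest in HFD replicate 3, as was the initiator. Red blood cell markers ran the other way over the same HFD replicates, at 25341, 19443 and 13352 RPM. White blood cell markers were highest in HFD replicate 2 (4241 RPM) and germ cell markers in CD replicate 2 (5021 RPM). The elongator libraries overlapped, with means of 157 ± 79 and 99.2 ± 29.8 RPM (1.58-fold, exact permutation p = 0.4). Its highest value, 242 RPM, was in HFD replicate 3, the library with the highest epithelial and smooth muscle markers (7580 and 29715 RPM in sum), and its lowest, 67.3 RPM, in CD replicate 3. The part of those cells in either total was not tested.

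By class, edgeR's quasi-likelihood test called 23 of 142 sperm tRFs (16.2%) with a fold over 1.5 and p under 0.05 before adjustment, all higher in HFD, and 0 (0.0%) once p was adjusted. Among the 6 tRFs of tRNA-Met 1 met that unadjusted rule: elongator other reads had 92.4, 112 and 54.0 RPM in CD and 69.7, 128 and 222 RPM in HFD, with overlapping groups (log2 fold change 0.70 ± 0.34 SE, edgeR adjusted p = 0.260). Without HFD replicate 3 its log2 fold change was 0.20, and the call was also lost without CD replicate 1, without CD replicate 3 or without HFD replicate 2. It was lost as well with DESeq2 at the same library sizes (0.70) or its own size factors (0.33), with TMM (0.20), with all clean reads as library size (0.61), with CCA-tailed reads as their own class (0.70) or as other (0.69) and with the replicate block (0.59). Initiator other reads had 2120, 1840 and 1415 RPM in CD and 2350, 2796 and 3195 in HFD and did not overlap, as did 26.8% of tRFs in that direction. Their log2 fold change of 0.63 ± 0.33 SE missed the rule (edgeR adjusted p = 0.263) and met it with DESeq2 at the same library sizes, a filter of 100 reads, either treatment of CCA-tailed reads, the replicate block (0.64) or without CD replicate 2. With TMM it was 0.11 (edgeR adjusted p = 0.950) and with DESeq2's own size factors 0.23 (adjusted p = 0.924). With all clean reads as library size it was 0.51 (edgeR adjusted p = 0.465), and on that scale the groups overlapped. Under DESeq2 at the same sizes, both treatments of CCA-tailed reads and the block, initiator other reads thus met the rule and elongator other reads did not, so which of the 2 was called depended on the setting. Initiator tRF5 had 124, 154 and 222 RPM in CD and 139, 161 and 183 in HFD (log2 fold change -0.05 ± 0.34). Elongator tRF5 ranged from 6.87 to 8.90 RPM in CD and from 6.10 to 13.2 in HFD (0.29 ± 0.30). Initiator tRF3 had 9.82, 16.4 and 9.75 RPM in CD and 23.4, 10.3 and 14.3 in HFD, with overlap (0.42 ± 0.30 SE, edgeR adjusted p = 0.331). It met the rule without CD replicate 2 (0.71) or without HFD replicate 2 (0.66), and was 0.040 without HFD replicate 1. Elongator tRF3 had 4.69, 5.78 and 4.48 RPM in CD and 9.37, 5.30 and 6.67 in HFD, with overlap (0.52 ± 0.31 SE, edgeR adjusted p = 0.267), and was 0.27 without HFD replicate 1. Both tRF3 were highest in HFD replicate 1, the sperm library with the highest red blood cell markers (25341 RPM) and rRNA share (32.95%). The part of these was not tested. The median log2 fold change was 0.44 over all sperm tRFs and 0.47 over the 6. With TMM over tRFs that median moved to -0.08, elongator tRF5 and both tRF3 turned below 0, initiator tRF5 was called as lower (-0.65), and the calls changed from 23 higher and 0 lower to 1 higher and 7 lower.

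Within the 2 tRNAs the split into classes did not pass a test between diets. tRF5 made up 8.87% ± 4.13 of initiator reads in CD and 5.46% ± 0.08 in HFD sperm (SD, n = 3 each), a change in log2 odds of -0.65 ± 0.38 SE (limma, adjusted p = 0.503). For the elongator it was 8.93% ± 3.65 and 6.69% ± 1.09 (-0.39 ± 0.36 SE, limma adjusted p = 0.643). Both values rested largely on CD replicate 3, and without it they were -0.26 for the initiator and -0.044 for the elongator. Over 49 isoacceptors tested, 0 passed at an adjusted p under 0.05 in any class and 2 (4.08%) passed for tRF5 before adjustment, with a median change of -0.30 in tRF5 odds. The log2 ratio of initiator to elongator was 4.35 in both diets, with a difference of 0.0040 against a pooled SD of 0.44 (exact permutation p = 1.0). The initiator share of mature tRNA reads was 1.44% ± 0.44 in CD and 2.19% ± 0.39 in HFD (exact permutation p = 0.2), with overlapping libraries.

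CC was compared with Ctrl cells to ask whether inhibition of AMPK changed the fragments. edgeR called 1 of 143 TM4 tRFs (0.699%) at an adjusted p under 0.05 with a fold over 2, and 0 of the 6 tRFs of tRNA-Met. Before adjustment 39 tRFs (27.3%) had p under 0.05 in edgeR, of which 0 were of tRNA-Met, and DESeq2 with the same library sizes called 6 tRFs, again 0 of tRNA-Met. Initiator tRF5 had 13.5 and 6.10 RPM in Ctrl and 8.14 and 4.35 in CC, with overlapping values and a log2 fold change of -0.65 ± 0.47 SE. The CC value was the lower at each replicate number, though the numbers were not shown to pair. Its log2 fold change was 0.034 without Ctrl replicate 1 and -1.17 without CC replicate 1. Elongator other reads had 46.2 and 49.9 RPM in Ctrl and 56.5 and 76.8 in CC (0.47 ± 0.24, edgeR adjusted p = 0.240). Elongator tRF3 had 20.7 and 21.7 RPM in Ctrl and 24.2 and 32.7 in CC (0.42 ± 0.22). Neither pair overlapped, but 55.9% of the tRFs were higher in both CC libraries, and the median log2 fold change was 0.43 over all tRFs and 0.45 over the 6. With TMM over tRFs that median moved to -0.05. The class split did not pass limma's test for either tRNA: initiator tRF5 had a change in log2 odds of -0.77 ± 0.67 SE (adjusted p = 0.470) and elongator tRF3 of -0.05 ± 0.22 SE (adjusted p = 0.948), where 5 of 50 isoacceptors (10.0%) were called for tRF5, 0 (0.0%) for tRF3 and 3 (6.0%) for other reads.

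Ang OE was compared with Ctrl cells to ask which fragments rose or fell with angiogenin. edgeR called 14 of 143 tRFs (9.79%), 6 higher and 8 lower, and 1 of the 6 tRFs of tRNA-Met. This was elongator other reads, which rose 2.34-fold, from 46.2 and 49.9 RPM to 106 and 118 RPM (log2 fold change 1.22 ± 0.24 SE, edgeR adjusted p = 0.0236). The call was lost without Ctrl replicate 1 or without Ctrl replicate 2, at log2 fold changes of 1.17 and 1.28. It was lost as well with CCA-tailed reads counted as other (0.91, edgeR adjusted p = 0.0532). Both tRF5 had higher values in both Ang OE libraries, as did 35.7% of tRFs, but missed the adjusted threshold. Initiator tRF5 had 13.5 and 6.10 RPM in Ctrl and 22.9 and 39.7 in Ang OE (3.20-fold, 1.68 ± 0.47 SE, edgeR adjusted p = 0.0682). Elongator tRF5 had 0.160 and 0.252 RPM in Ctrl and 0.666 and 0.660 in Ang OE (3.17-fold, 1.66 ± 0.48 SE, edgeR adjusted p = 0.0701), on at most 36 reads. Elongator tRF5 was called with DESeq2's own size factors (adjusted p = 0.0294), TMM (0.0469 by edgeR) and genome-matched reads alone. CCA-tailed reads as their own class and the compared groups alone called it too. So did ComBat-seq with the replicate number as batch, though the fit that followed had no batch term. The last was the crossed block, which swaps the replicate numbers of Ang OE and was chosen after seeing the data. Adjusted p-values in these 7, all on the same data, were 0.0111 to 0.0469 by edgeR or DESeq2. Elongator tRF5 was not called without any 1 library, at log2 fold changes of 1.39 to 2.04. DESeq2 with the same library sizes called initiator tRF5 (adjusted p = 0.0046) and 27 tRFs in all, and its own size factors, TMM, the compared groups alone, ComBat-seq and the crossed block called it as well. Without Ctrl replicate 1 edgeR called it too (2.36, adjusted p = 0.00662), as it did without Ang OE replicate 1 (2.02, adjusted p = 0.0351). Without Ctrl replicate 2 the value was 1.22 (edgeR adjusted p = 0.187) and without Ang OE replicate 2 it was 1.23 (edgeR adjusted p = 0.111). Elongator tRF3 had 18.1 and 18.3 RPM in Ang OE (-0.22 ± 0.22 SE), and its value was -0.96 with genome-matched reads alone (edgeR adjusted p = 0.0821). The median log2 fold change was -0.01 over all tRFs and 0.74 over the 6. Smooth muscle and germ cell marker sums were also higher in both Ang OE libraries than in Ctrl, with values given below, and their part was not tested.

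The share of other reads moved up in the elongator and down in the initiator when CCA-tailed reads were counted as tRF3. In the elongator, other reads rose from 69.2% ± 0.4 of its reads in Ctrl to 85.6% ± 0.8 in Ang OE (SD, n = 2 each), a change in log2 odds of 1.41 ± 0.22 SE (limma, adjusted p = 0.00127). Its tRF3 fell from 30.6% ± 0.5 to 13.9% ± 0.8 (-1.45 ± 0.22 SE, limma adjusted p = 0.00853), which is nearly the same change seen from the other side, since tRF5 was so rare. In the initiator, other reads fell from 83.2% ± 4.3 to 70.0% ± 4.4 (-1.10 ± 0.29 SE, limma adjusted p = 0.0122). Its tRF5 had 11.4% ± 5.5 in Ctrl and 25.5% ± 5.3 in Ang OE (1.48 ± 0.67 SE, limma adjusted p = 0.122). Of 50 isoacceptors, the odds of other reads were called in 20 (40.0%), 17 higher and 3 lower. The odds of tRF3 were called in 19 (38.0%), all lower, and those of tRF5 in 10 (20.0%). The initiator was thus among the 3 isoacceptors called lower for other reads. Its call was lost without Ctrl replicate 2 (-0.79, adjusted p = 0.145), without Ang OE replicate 1 (-1.32, adjusted p = 0.0635) or without Ang OE replicate 2 (-0.89, adjusted p = 0.140) in limma, and the elongator's tRF3 call without Ctrl replicate 2 (limma adjusted p = 0.0532). With CCA-tailed reads counted as other, the elongator change turned to -0.48 and the initiator's was -1.41 and no longer called (limma adjusted p = 0.0562), so both values were then below 0.

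The log2 ratio of initiator to elongator other reads was 0.61 and 0.49 in Ctrl, 0.32 and 0.14 in CC, and -0.46 and -0.38 with Ang OE. The 3 groups did not overlap, and the initiator was the more abundant in Ctrl and CC and the elongator in Ang OE. With CCA-tailed reads counted as other, the log2 ratios were 0.15 and 0.064 in Ctrl, -0.089 and -0.25 in CC and -0.59 and -0.51 with Ang OE. The groups did not overlap then either, but the elongator was the more abundant in CC too, and the Ang OE minus Ctrl difference was -0.66 in place of -0.97. With 2 libraries a group an exact permutation test cannot go below 0.333, and these ratios are given as values, since no other test of them was run. The tRF5 ratio was 6.31 and 4.56 in Ctrl and 5.08 and 5.89 in Ang OE, which overlapped.

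Ang OE was also set beside CC. Here edgeR called 55 of 143 tRFs (38.5%), 16 higher and 39 lower in Ang OE. Initiator tRF5 was the tRNA-Met fragment called: 22.9 and 39.7 RPM in Ang OE lay above 8.14 and 4.35 RPM in CC, a 5.01-fold difference without overlap, which 24.5% of tRFs showed in that direction (log2 fold change 2.33 ± 0.49 SE, edgeR adjusted p = 0.00964). It stayed past the threshold in all 17 alternatives run, leaving out each library included, with an adjusted p of at most 0.0331 by edgeR or DESeq2. Elongator tRF5, at 0.666 and 0.660 RPM in Ang OE and 0.348 and 0.294 in CC, was 2.05-fold higher without overlap and missed the threshold (1.04 ± 0.46 SE, edgeR adjusted p = 0.0952). It was called with TMM (1.44, edgeR adjusted p = 0.0434) and with DESeq2's own size factors (1.46, adjusted p = 0.0487). Elongator other reads had an adjusted p of 0.0301 and elongator tRF3 of 0.0419 in edgeR, among the 51.7% of tRFs with an adjusted p under 0.05, at log2 fold changes of 0.75 ± 0.24 and -0.64 ± 0.22 SE, below a fold of 2. With TMM over tRFs the median over all tRFs moved from -0.38 to 0.03, elongator other reads were called (1.19) and elongator tRF3 had -0.21 (edgeR adjusted p = 0.325). DESeq2 gave elongator tRF3 an adjusted p of 0.0659 at the same library sizes and of 0.408 (-0.20) with its own size factors. Genome-matched reads alone gave -1.36 (edgeR adjusted p = 0.0159). With CCA-tailed reads as other, elongator other reads had 0.46 (edgeR adjusted p = 0.157). Leaving out 1 library gave edgeR adjusted p-values of 0.0291 to 0.122 for elongator other reads and of 0.00986 to 0.184 for elongator tRF3, so neither held throughout. The Ang OE libraries also had higher smooth muscle marker precursors (61711 and 79792 RPM in sum, against 29771 to 31248 in Ctrl and 30287 to 42667 in CC) and germ cell markers (1195 and 1335 RPM, against 591 to 609 and 550 to 595), with the germ cell markers mir-880, mir-883a and mir-463 at 0 in every TM4 group. Their part in these differences was not tested.

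**Figure D4:**
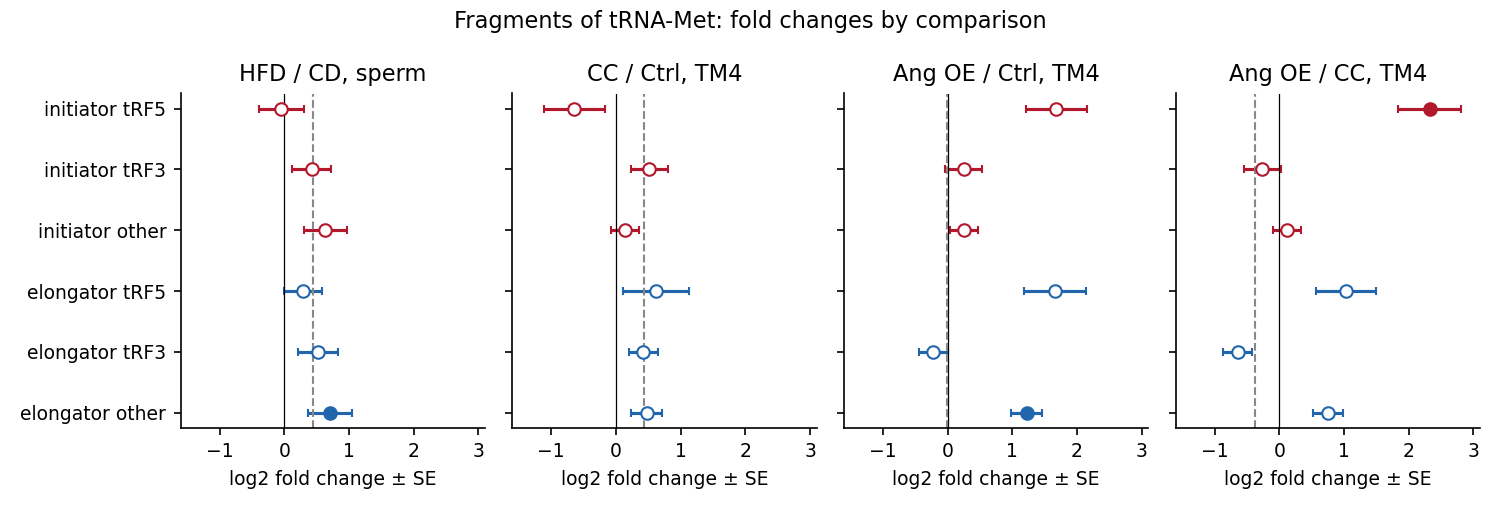
log2 fold change ± SE (edgeR) of the 6 tRFs of tRNA-Met in 4 comparisons, with filled points for called tRFs, a dashed line at the median of all tRFs tested and a solid line at 0. Elongator other reads are filled in HFD against CD (unadjusted rule, 0.70) and in Ang OE against Ctrl (1.22), and initiator tRF5 in Ang OE against CC (2.33).

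Mitochondrial tRNA-Met, which serves both initiation and elongation in the organelle, had levels that overlapped between sperm and TM4 cells. It had 184 to 214 RPM in CD, 200.5 to 237 in HFD, 184 and 278 in Ctrl, 234 and 98.6 in CC and 154 and 188 with Ang OE. Its tRF5 share was lower in every sperm library than in any TM4 library, which was not tested: tRF5 made up 43.7% ± 9.2 of its reads in CD and 33.3% ± 2.1 in HFD sperm (SD, n = 3), and 90.8% ± 1.1 in Ctrl, 83.8% ± 3.7 in CC and 92.4% ± 1.3 with Ang OE (n = 2). The median cytosolic isoacceptor ran the other way, with 11.9% tRF5 in CD sperm and 1.86% in Ctrl cells. The elongator tRF5 share lay under 1% of reads in the TM4 libraries where the mitochondrial share was 81.2% or more.

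The tRFs whose log2(RPM + 1) over the 12 libraries was most like each tRNA-Met fragment of the same class are given as a description, since a separation of sperm from TM4 cells alone gives a high correlation. For initiator tRF5 these were Val-TAC (r = 0.988) and Gly-GCC (0.981), the latter the tRF5 of 69018 RPM in CD sperm, against a median r of 0.91 over 41 candidates. For elongator tRF5 they were Ala-AGC (0.99) and Ala-CGC (0.986), with a median of 0.90. Initiator other reads were most like Trp-CCA (0.995) and Leu-AAG (0.993), with a median of 0.918 over 48 candidates, and elongator other reads like Gln-TTG (0.855) and Asn-GTT (0.834), with a median of 0.47. Initiator tRF3 were most like Thr-TGT (0.904) and SeC-TCA (0.897), where the median over 47 candidates was -0.50, and elongator tRF3 like Arg-ACG (0.989) and Arg-TCG (0.988), where it was 0.918. The 2 tRNA-Met correlated with each other at r = 0.945 for tRF5, 0.486 for other reads and -0.675 for tRF3.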

How the data were processed

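Small RNA libraries of mouse sperm and TM4 cells were sequenced by the authors, who trimmed reads (per the labels, FastQC 0.12.0 and Trimmomatic 0.40, build mm10), kept 15 to 45 bases and annotated them with SPORTS1.1, allowing 1 mismatch. The deposited files give estimated counts per class and subclass, not normalised, with a read that fits several subclasses divided among them. All 12 libraries were used and grouped by their labels. Reads with and without a genome match were added, and counts were rounded for the tests.

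tRFs (isoacceptor by tRF5, tRF3 with CCA, or other) that reached 10 reads in 3 or more sperm libraries, or in 2 or more TM4 libraries, were tested together by edgeR 4.0.16 (quasi-likelihood, R 4.3.3), with clean reads minus rRNA as library size, no further scaling, and Benjamini-Hochberg adjustment over all tRFs. TM4 groups shared a model of 6 libraries, and CD against Ctrl used all 12. For CD against Ctrl, 10 reads in any 2 of the 12 libraries were enough. Sperm calls needed an unadjusted p under 0.05 and a fold over 1.5, and the other calls an adjusted p under 0.05 and a fold over 2. SE is the log2 fold change over the root of the F statistic. Class shares were tested by limma 3.58.1 on log2 odds (0.5 added) over isoacceptors with at least 100 reads in every library. Ratios (0.5 added), totals and shares were compared by exact two-sided permutation tests (scipy 1.17.1). Both test scripts were tested on simulated data with changes larger than most reported here, so recovery of smaller changes was not shown.

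The rule for named items was all 6 tRNA-Met tRFs, mitochondrial and precursor tRNA-Met, and for each tRF the 2 tRFs of its class with the largest Pearson r and a mean of at least 10 reads. Members, lists and tests were chosen with earlier results of these data known. tRNA genes were found in GRCm39 by their fold, and not every variant is reported here; RefSeq (GRCm38.p6) was used only for the number, chromosome and length of genes. Same-numbered libraries were not shown to pair: their deviations correlated at 0.0195 to 0.205 between HFD and CD, and at 0.763 between CC and Ctrl, where 2 libraries a group were too few to take the numbers as pairs. Replicates differed by more than counting noise (chi-square per degree of freedom 303.6 or more), so each was counted as a library. Alternatives were DESeq2 1.42.0, TMM, other library sizes and filters, other treatment of CCA reads, a replicate block, ComBat-seq (sva 3.50.0, replicate number as batch) and leaving out each library. The authors also adjusted their cell line data with ComBat-seq, and the labels do not name its batch. The main tests here had no batch term.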

Additional observations from a re-analysis of the deposited data

Results flagged for a closer look

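The ratio of initiator to elongator reads differed between the 6 sperm and the 6 TM4 libraries by an exact permutation test of the difference itself. The differences in log2 ratio, sperm minus TM4, were 4.318 for all reads, 3.216 for tRF3 and 4.319 for other reads.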

How the results depend on the processing

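The numbers of tRNA-Met tRFs called, of 6, were small and moved with the settings. For HFD against CD (1) it was 0 with DESeq2's own size factors or all clean reads as library size, 2 with a filter of 100 reads, and 0 to 3 without each library. For Ang OE against Ctrl (1) it was 2 with DESeq2 at the same library sizes, with genome-matched reads alone and with CCA reads as their own class, 0 with CCA reads as other, 3 with DESeq2's own size factors, TMM, the compared groups alone, ComBat-seq and the crossed block (chosen after seeing the data), and 0 to 2 without each library, where the remaining Ctrl or Ang OE library is assumed to vary like the other groups. For Ang OE against CC (1) it was 3 with DESeq2's own size factors or TMM and 2 with genome-matched reads alone, and for CD sperm against Ctrl (5) it was 3 with CCA reads as other and 5 to 6 without each library. Tested tRFs called in all were 8 (TMM), 9 (DESeq2's own size factors), 13 (all clean reads) and 7 to 54 (without each library) for HFD against CD (23); 6 (DESeq2, both), 2 (replicate block or compared groups alone), 13 (ComBat-seq) and 1 to 26 for CC against Ctrl (1); and 27, 31, 24, 5, 30, 34 and 28 (DESeq2 at the same sizes, its own factors, TMM, CCA as other, compared groups alone, ComBat-seq, crossed block) and 3 to 14 for Ang OE against Ctrl (14). For CD sperm against Ctrl the calls were 73 higher and 40 lower, but 44 and 52 with TMM. The odds of initiator tRF5 in Ang OE passed with a pseudocount of 5 (1.47, limma adjusted p = 0.0441).

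Log2 fold changes that turned sign were, with TMM, for HFD elongator tRF3 (-0.0021), elongator tRF5 (-0.28) and initiator tRF3 (-0.076), for CC elongator tRF3 (-0.046) and initiator other (-0.32), for Ang OE against CC initiator tRF3 (0.18) and for CD sperm against Ctrl elongator other (-0.42). With DESeq2's own size factors they were HFD elongator tRF5 (-0.14), CC initiator other (-0.24), Ang OE against CC initiator tRF3 (0.19) and CD sperm against Ctrl elongator other (-0.11). With CCA reads apart or as other, tRF3 rests on few reads: CC initiator -0.69 under both, Ang OE against Ctrl elongator 0.72 under both and initiator -0.84 under both (and -0.14 with genome-matched reads alone), Ang OE against CC elongator 0.11 under both, and CD sperm against Ctrl elongator 0.68 under both. With CCA reads as other, the log2 odds of elongator other reads were -0.14 in CC and -0.48 in Ang OE, and the HFD minus CD difference in the tRF3 ratio was 0.76. The elongator difference between sperm and TM4 cells was 29.5 RPM with clean reads without rRNA as denominator. The cause of these moves was not tested beyond the change in setting itself.

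Without each library, fold changes that crossed 0 ranged from -0.22 to 0.22 (HFD initiator tRF5), -1.17 to 0.034 (CC initiator tRF5), -0.0082 to 0.25 (Ang OE against CC, initiator other) and -0.51 to 0.031 (initiator tRF3). Log2 odds ranged from -0.73 to 0.33 (HFD elongator tRF3), -0.64 to 0.077 (HFD initiator tRF3), -0.079 to 0.59 (HFD elongator other), -0.13 to 0.55 (CC elongator tRF5), -0.043 to 0.58 (CC initiator other) and -0.50 to 0.00093 (Ang OE initiator tRF3). The HFD minus CD log2 ratio ranged from -0.26 to 0.27 in all reads, -0.20 to 0.033 in tRF3 and -0.28 to 0.34 in other reads.

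With the replicate block, the HFD call was initiator other (0.64) and not elongator other (0.59), with 28 tRFs called in all, and the same exchange occurred with DESeq2 at the same library sizes and with CCA reads as their own class or as other. Each HFD library correlated best with the CD library of its number, as a hint from the data only. For Ang OE the correlations were -0.226 with Ctrl and -0.256 with CC. The ratio of all reads in sperm against TM4 cells kept its direction and side of the threshold under every alternative run.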
